A study of Mus musculus with 9 samples.

Results

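The genes described here are 10 well-known transcriptional targets of the tumor suppressor p53, with Cdkn1a, the gene of the cell cycle inhibitor p21, as the best known of them. They were taken by name (Cdkn1a, Mdm2, Ccng1, Bax, Bbc3, Pmaip1, Trp53inp1, Sesn1, Zmat3 and Phlda3), and all 10 were found among the 55403 genes and transgenes of the count table. All 10 passed the filter on low counts, as did 14665 genes in all. RNA had been sequenced from mammary tumors of female mice, with both genes of the stress-inducible chaperone HSP72 deleted (Hspa1a/Hspa1b-/-, KO, 5 libraries from mice aged 120 to 125 days) or intact (Hspa1a/Hspa1b+/+, WT, 4 libraries from mice aged 122 to 132 days). Every animal of both groups was on a C57BL/6 background with the MUC1.Tg transgene and with the polyoma middle T oncogene driven by the MMTV promoter, which is active mainly in mammary epithelium, and no group was without the oncogene. Tumors were dissociated with collagenase and trypsin before RNA was extracted, and the labels carry no animal or litter numbers, so each p-value is relative to the spread among tumor samples, which may be partly technical.

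p53 is a transcription factor that is kept scarce by the ubiquitin ligase Mdm2 and accumulates after DNA damage, oncogene activity and other stress. It then switches on genes that halt the cell cycle, promote apoptosis, limit growth signalling or repair damage, and also Mdm2 itself, which closes a negative feedback loop. Many of these genes also respond to other factors, so their transcripts are an indirect readout of p53. The HSP70 and HSP90 chaperones bind p53 and assist its folding in cell-free and cell culture studies.

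The regulatory sequence of Cdkn1a is shown because p53 is known to act there through a binding element upstream of the main promoter. In the RefSeq sequences of GRCm38.p6, 7 of the 10 genes had a window of 300 bases (250 before and 50 after an annotated start), giving 11 windows. The 10-base p53 consensus half-site, which reads the same on both strands, was present in 5 of the 11 windows, those of Cdkn1a, Mdm2, Ccng1, Bax and Sesn1, and in 8.36% of the 32851 windows of all genes. A full site, taken as a pair of half-sites with 0 to 13 bases between them, was present in 1 of the 11 windows and in 0.0731% of all windows (24 of 32851). It lay in the window of the upstream start of Cdkn1a (chr17:29090729-29091028, plus strand), 2790 bases before the second annotated start, with half-sites from -73 to -64 and from -51 to -42 relative to that start. The window of the second Cdkn1a start held no half-site. For comparison the window of Mdm2 (chr10:117710709-117711008, minus strand) is shown, with 1 half-site from -186. Capitals mark the half-sites that match the consensus in every letter, and both sequences run 5′ to 3′. In Cdkn1a the 10 bases directly after the half-site at -51, tgacatgttc, differ from the consensus only in their first letter and are not marked. The marked pair comes from this strict search, and which pair p53 binds was not tested.

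Cdkn1a upstream start: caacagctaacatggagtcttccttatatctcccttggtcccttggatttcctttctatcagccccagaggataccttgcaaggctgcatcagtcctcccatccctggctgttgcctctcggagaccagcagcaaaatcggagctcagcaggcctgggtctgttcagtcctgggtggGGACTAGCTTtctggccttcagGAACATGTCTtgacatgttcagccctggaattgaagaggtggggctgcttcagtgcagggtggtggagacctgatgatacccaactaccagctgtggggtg
Mdm2: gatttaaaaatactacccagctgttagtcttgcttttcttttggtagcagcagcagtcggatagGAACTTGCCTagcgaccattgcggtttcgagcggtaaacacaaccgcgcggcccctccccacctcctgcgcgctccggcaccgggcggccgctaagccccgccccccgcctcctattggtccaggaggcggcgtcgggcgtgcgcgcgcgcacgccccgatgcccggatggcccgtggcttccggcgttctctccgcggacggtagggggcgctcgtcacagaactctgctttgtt

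The half-sites of the other windows were GGGCAAGCCT in Ccng1, AGGCAAGCTT in Bax and AAGCTTGTTT in Sesn1, while the windows of Bbc3 and Phlda3 held none. The core of the heat shock element, searched as GAANNTTC and TTCNNGAA on both strands, was present in 15.1% of all windows and in 2 of the 11, those of Sesn1 and of the upstream start of Cdkn1a. In Sesn1 the heat shock match lay in the window chr10:41810324-41810623, and the half-site in another window, chr10:41887189-41887488. In Cdkn1a the heat shock match, TTCAGGAA from -56, overlaps the half-site that starts at -51. These matches describe letters in the windows and do not show binding.

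Libraries held 4410399 to 6221181 counts on genes, and a count of 0 allowed a level of up to 0.489 to 0.698 CPM (counts scaled to library size; the limit is taken as 3 counts and covers counting error only). The deletion was visible in the counts, with 6 Hspa1b counts in all KO libraries against 1043 in all WT libraries (log2 fold change -7.89 ± 0.51, SE; edgeR adjusted p = 5.31e-05), and 23 Hspa1a counts against 139. PyMT stood at 8575 to 15448 CPM in KO libraries and 7294 to 10167 CPM in WT libraries. The luminal markers, which define the tumor epithelium, were present in every library, with a summed level of 3392 to 4093 CPM in KO libraries and 3597 to 7149 CPM in WT libraries. WT 1 had the lowest median correlation with the other libraries (r = 0.940, against 0.955 to 0.974 for the rest).

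None of the 10 p53 targets separated the genotypes. In the edgeR quasi-likelihood test with Benjamini-Hochberg adjustment over all genes, 0 of 10 were called, where 0.0886% of all genes tested were called (0.0546% higher and 0.0341% lower in KO). DESeq2 also called 0 of 10, against 0.322% of the genes it tested, and limma-voom 0 of 10, against 0.130%. At an unadjusted p under 0.05 by edgeR there was 1 of 10, Cdkn1a with KO higher, against 7.95% of all genes (3.36% higher and 4.59% lower in KO). The levels of KO and WT libraries overlapped for all 10 members, while 2.70% of all genes had groups that did not overlap (1.44% higher and 1.26% lower in KO). The log2 fold change of KO over WT was positive for 8 of 10 members, where 50.0% of all genes tested were positive, and its median was 0.23, against -7.8e-05 over all genes. Without KO 5 the median was 0.15 over the 9 members tested, and by limma-voom with sample weights it was 0.12.

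**Figure D1:**
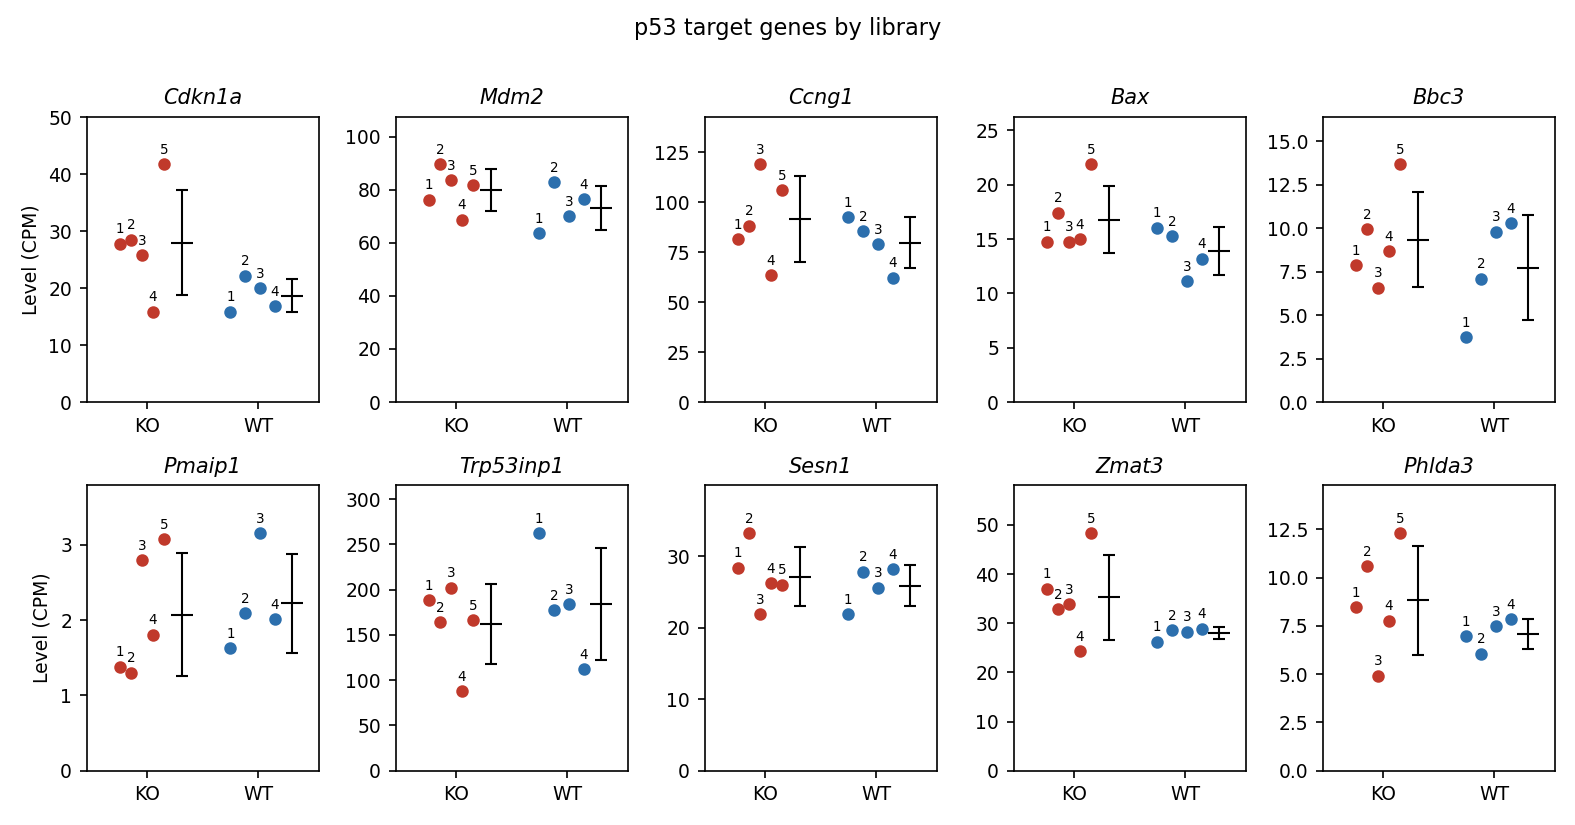
Level in CPM, counts scaled to library size (vertical axis, from 0), of the 10 p53 target genes in each KO library (red) and WT library (blue), labelled by library number, with the mean and SD of each group in black. KO and WT libraries overlap for all 10 genes, and KO 5 has the highest level of Cdkn1a, Bax, Bbc3, Zmat3 and Phlda3.

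Among the genes that halt the cell cycle, Cdkn1a had the highest fold change of the 10. p21, its product, binds and inhibits cyclin-dependent kinases. Cdkn1a (ENSMUSG00000023067.14, chromosome 17, 29090976 to 29100727) stood at 27.8, 28.5, 25.8, 15.9 and 41.7 CPM in KO 1 to KO 5, against 15.8, 22.2, 19.9 and 16.8 CPM in WT 1 to WT 4. Of the 5 KO libraries 4 lay above every WT library, and KO 4 lay among the lowest WT libraries. The means were 27.9 ± 9.22 CPM in KO and 18.7 ± 2.91 CPM in WT (SD, n = 5 and 4). The log2 fold change was 0.58 ± 0.24 (SE; 95% interval 0.05 to 1.10), with an unadjusted p of 0.0337 and an edgeR adjusted p of 0.616. Leaving out 1 library at a time gave 0.39 (without KO 5) to 0.72 (without KO 4), and the adjusted p was 0.466 to 0.940 over all alternatives tried. The gene shares 273 of its 3553 exon bases with AC167363.2, an annotated transcript of the opposite strand that had 2 counts in KO libraries and 0 in WT libraries. Cdkn1a lies 5.86 Mb from the deleted Hspa1b on the same chromosome, and the part of neighbouring sequence in its level was not tested.

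Ccng1 (chromosome 11, 40748552 to 40755311), which encodes cyclin G1, a partner of phosphatase 2A that acts on Mdm2, was among the more abundant members. It stood at 81.6, 88.2, 118.9, 63.5 and 106.0 CPM in KO 1 to KO 5, against 92.3, 85.3, 78.9 and 62.2 CPM in WT 1 to WT 4. The groups overlapped widely, with KO 4 and WT 4 both lowest in their group. Its log2 fold change was 0.20 ± 0.19 (SE; interval -0.21 to 0.61; edgeR adjusted p = 0.793), and 0.09 without KO 3 or without WT 4.

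Mdm2 (chromosome 10, 117688875 to 117710758), the ubiquitin ligase that directs p53 to degradation and the feedback arm of the pathway, had the narrowest interval of the 10. It stood at 76.2, 89.6, 83.6, 68.8 and 81.7 CPM in KO 1 to KO 5, against 63.7, 83.0, 70.0 and 76.5 CPM in WT 1 to WT 4. KO 2 was highest and WT 1 lowest, and the groups overlapped. The log2 fold change was 0.13 ± 0.12 (SE; edgeR adjusted p = 0.807). Its 95% interval ran from -0.14 to 0.39, which includes 0 and the median of the list.

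The apoptotic members gave small differences with wide intervals. Bax (chromosome 7, 45461697 to 45466898), whose product permeabilizes the mitochondrial outer membrane, stood at 14.8, 17.4, 14.8, 15.0 and 21.9 CPM in KO 1 to KO 5, against 16.0, 15.3, 11.1 and 13.2 CPM in WT 1 to WT 4. KO 5 and KO 2 lay above all WT libraries and the other KO libraries lay among them. Its log2 fold change was 0.27 ± 0.18 (SE; interval -0.12 to 0.67; edgeR adjusted p = 0.702), and 0.16 without KO 5. Bax shares 192 of its 1576 exon bases with Gm45808, which had 0 counts in every library. Bbc3 (chromosome 7, 16308393 to 16318205) encodes PUMA, a BH3-only protein that frees Bax from its inhibitors. It stood at 7.88, 9.94, 6.57, 8.67 and 13.7 CPM in KO 1 to KO 5, against 3.72, 7.11, 9.80 and 10.3 CPM in WT 1 to WT 4. The 2 ends of the range were WT 1 and KO 5, and the log2 fold change of 0.27 ± 0.31 (SE; interval -0.41 to 0.94; edgeR adjusted p = 0.843) was 0.04 without WT 1 and 0.09 without KO 5. Pmaip1 (chromosome 18, 66458533 to 66465565) encodes NOXA, a BH3-only protein that binds Mcl1. It was the least abundant member, with 7 to 19 counts a library, and stood at 1.30 to 3.08 CPM in KO libraries and 1.63 to 3.16 CPM in WT libraries. Its log2 fold change of -0.12 ± 0.35 (SE; interval -0.88 to 0.65; edgeR adjusted p = 0.950) changed sign when KO 2 or WT 3 was left out, so no difference in either direction was detectable at this depth.

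Trp53inp1 (chromosome 4, 11156431 to 11174379), which promotes p53 phosphorylation, autophagy and apoptosis, was the member with the most negative value. It stood at 188.5, 163.8, 202.3, 87.9 and 166.2 CPM in KO 1 to KO 5, against 262.6, 177.0, 183.6 and 112.1 CPM in WT 1 to WT 4. Both groups spread widely, with KO 4 and WT 4 low and WT 1 high. The log2 fold change was -0.18 ± 0.26 (SE; interval -0.76 to 0.39; edgeR adjusted p = 0.874), and 0.04 without WT 1.

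The remaining members act in growth control and RNA stability. Zmat3 (chromosome 3, 32334792 to 32366014), an RNA-binding zinc finger protein that acts as a tumor suppressor in mice, stood at 37.0, 32.9, 33.8, 24.4 and 48.4 CPM in KO 1 to KO 5, against 26.3, 28.6, 28.2 and 28.9 CPM in WT 1 to WT 4. As for Cdkn1a, 4 of 5 KO libraries lay above every WT library, and KO 4 lay below them all. The coefficient of variation of Zmat3 was 24.6% in KO and 4.21% in WT. Its log2 fold change was 0.33 ± 0.18 (SE; interval -0.05 to 0.72; unadjusted p = 0.0832; edgeR adjusted p = 0.650), and 0.19 without KO 5. Phlda3 (chromosome 1, 135766119 to 135769136), a pleckstrin homology domain protein that competes with Akt for membrane lipids, stood at 8.47, 10.6, 4.93, 7.76 and 12.3 CPM in KO 1 to KO 5, against 6.98, 6.06, 7.48 and 7.83 CPM in WT 1 to WT 4. The WT libraries lay inside the range of the KO libraries. Its log2 fold change was 0.31 ± 0.26 (SE; interval -0.25 to 0.88; edgeR adjusted p = 0.760), and 0.16 without KO 5. Sesn1 (chromosome 10, 41809935 to 41908424), a sestrin that restrains mTORC1 and oxidative stress, stood at 21.8 to 33.2 CPM in KO libraries and 21.9 to 28.2 CPM in WT libraries. Its log2 fold change of 0.07 ± 0.15 (SE; interval -0.25 to 0.39; edgeR adjusted p = 0.927) was the smallest of the 10 in size and was at or just below 0 without KO 2 or WT 1.

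**Figure D2:**
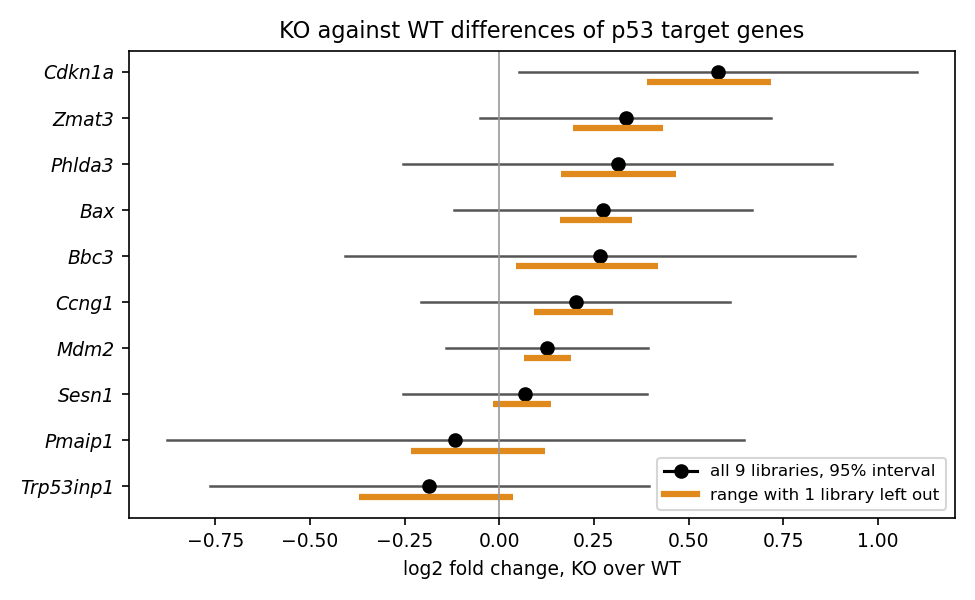
Log2 fold change of KO over WT (horizontal axis) of the 10 p53 target genes, ordered by size, with 95% intervals (grey) and the range of values when 1 library was left out (orange). The interval of Cdkn1a, 0.05 to 1.10, lies above 0 and the other 9 intervals include it.

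Averaged over the members, levels were highest in KO 5 and lowest in KO 4. KO 5 held the highest level of the 9 libraries for 5 of the 10 members (Cdkn1a, Bax, Bbc3, Zmat3 and Phlda3) and was among the top 2 libraries for 7. Its mean standardised level over the members was 1.19 SD units, against -0.70 in KO 4, -0.61 in WT 1 and between -0.37 and 0.54 in the other libraries. KO 2 was highest for Mdm2 and Sesn1, KO 3 for Ccng1, WT 1 for Trp53inp1 and WT 3 for Pmaip1. KO 5 also had the highest summed level of T and NK cell markers, at 33.9 CPM, against 3.94 to 10.6 CPM in the other KO libraries and 10.5 to 19.0 CPM in WT libraries. Its macrophage marker sum was 376 CPM, against 199 to 272 CPM in the other KO libraries and 312 to 531 CPM in WT libraries. Its fibroblast marker sum was the lowest, at 203 CPM, against 252 to 423 CPM in the other KO libraries and 541 to 747 CPM in WT libraries. Mitochondrial transcripts made up 9.87% of its gene counts, against 4.31% to 8.81% in the other KO libraries and 3.69% to 13.6% in WT libraries. Between genotypes, 8 of 9 fibroblast, 9 of 9 endothelial, 9 of 9 macrophage and 10 of 10 luminal markers tested had negative fold changes. By edgeR 0 of these were called, against 0.0886% of all genes tested, and 50.0% of all genes had positive fold changes. In that order, 5, 3, 1 and 3 were lower at an unadjusted p under 0.05, against 4.59% of all genes, and DESeq2 called 2, 0, 1 and 0, against 0.322% of all genes. Of the remaining markers tested, 4 of 7 basal and myoepithelial, 3 of 3 T and NK cell and 2 of 3 adipocyte markers had negative fold changes. Of these 0, 0 and 1 were lower at an unadjusted p under 0.05 by edgeR. The endothelial sum was 26.7 to 69.6 CPM in KO libraries and 50.2 to 158 CPM in WT libraries. The part of these measures in the levels of the p53 targets was not tested, and in whole tumors a change in the share of a cell type and a change in RNA per cell cannot be told apart.

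**Figure D3:**
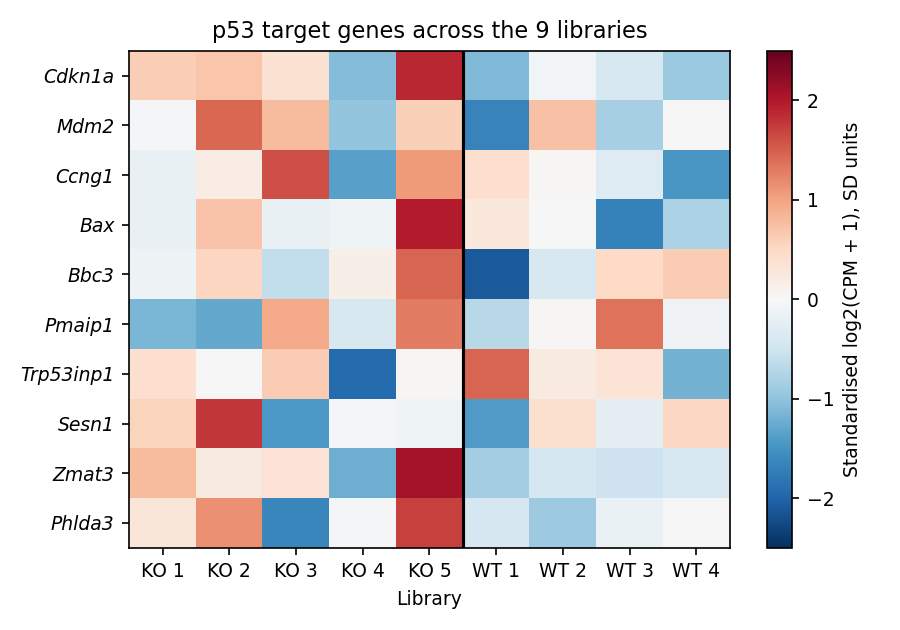
Level of each p53 target gene (rows) in each library (columns, KO left of WT), as log2(CPM + 1) standardised over the 9 libraries (colour, in SD units, red high and blue low). KO 5 is red for most genes, KO 4 and WT 1 are blue for most, and the genotypes do not separate.

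The members differed widely in abundance, and the order was close in both genotypes. Per kilobase of annotated exon, mean levels in KO libraries ran from 26.1 CPM per kb for Ccng1 and 25.0 for Trp53inp1 through 15.7 for Mdm2, 10.6 for Bax, 7.86 for Cdkn1a, 6.81 for Sesn1, 5.65 for Phlda3 and 4.40 for Bbc3 to 3.09 for Zmat3 and 0.758 for Pmaip1. In WT libraries the order was Trp53inp1 (28.4 CPM per kb), Ccng1 (22.7), Mdm2 (14.4), Bax (8.83), Sesn1 (6.49), Cdkn1a (5.26), Phlda3 (4.55), Bbc3 (3.64), Zmat3 (2.45) and Pmaip1 (0.813). In KO libraries neighbours in the order had overlapping ranges, apart from Zmat3 and Pmaip1. In WT libraries Ccng1, Mdm2 and Bax were also separated from one another, and the other neighbours overlapped.

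The pattern of Cdkn1a over the libraries was followed most closely by Zmat3 among the members. The correlation of log2(CPM + 1) with Cdkn1a over the 9 libraries was r = 0.951 (rho = 0.883) for Zmat3 and r = 0.237 to 0.699 for the other 8 members, given as a description of values that share their libraries and scaling. Without KO 5 and WT 1, the libraries farthest from the median of Cdkn1a, r was 0.889 for Zmat3 (n = 7). Among the other members r then ran from -0.36 for Bbc3 to 0.807 for Trp53inp1, while Mdm2 (0.718) and Sesn1 (0.201) stayed close to their values over all 9 libraries. KO 4, with Cdkn1a at 15.9 CPM against 15.8 CPM in WT 1, was nearly as far from the median and was kept. It was the lowest library for Trp53inp1 and Zmat3, and its part in these r values was not tested. Of 12449 other genes ranked, Acad11 (r = 0.970), Sprtn (0.926), Ube2v1 (0.876), Trpm3 (0.873) and Atp6v0e2 (0.830) were most like Cdkn1a, and without the same pair of libraries r was 0.934, 0.841, 0.803, 0.803 and 0.707. These genes were picked by r in the same libraries, so their r is a description only. Counts were low for Ube2v1 (7 to 17 a library) and Atp6v0e2 (6 to 27 a library).

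Transcripts of p53 itself and of its regulators were also compared. Of 18 regulators listed, 16 were tested, and Cdkn2a and Trp73 fell under the count filter. None was called by edgeR or DESeq2, against 0.0886% and 0.322% of the genes each tested. By edgeR 3 had an unadjusted p under 0.05, all with a positive fold change, against 3.36% higher in KO over all genes. Positive fold changes were seen for 14 of 16, against 50.0% of all genes, and the median log2 fold change was 0.14. Trp53, the gene of p53 (chromosome 11, 69580359 to 69591873), stood at 55.9, 57.2, 60.4, 73.5 and 60.9 CPM in KO 1 to KO 5, against 46.3, 55.4, 48.2 and 52.1 CPM in WT 1 to WT 4. Every KO library lay above every WT library, with KO 1 and WT 2 close together. The log2 fold change was 0.29 ± 0.12 (SE; unadjusted p = 0.0335; edgeR adjusted p = 0.616). Mdm4, a relative of Mdm2 that masks the activation domain of p53, stood at 297 to 382 CPM in KO libraries and 268 to 280 CPM in WT libraries, without overlap (log2 fold change 0.30 ± 0.12, SE; edgeR adjusted p = 0.616). Chek1, a checkpoint kinase of replication stress, stood at 8.72 to 15.8 CPM in KO libraries and 6.06 to 8.37 CPM in WT libraries, also without overlap (0.75 ± 0.21, SE; edgeR adjusted p = 0.493). Groups that do not overlap with KO higher were seen for these 3 of 16 regulators and for 1.44% of all genes tested.

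A wider list of 40 other p53 targets gave 34 tested genes, of which 21 had positive and 13 negative fold changes, with a median of 0.14. In edgeR 0 of 34 were called, against 0.0886% of all genes, and 7 had an unadjusted p under 0.05 (5 higher and 2 lower in KO), against 7.95% of all genes (3.36% higher and 4.59% lower). DESeq2 called 1, Tnfrsf10b, against 0.322% of all genes. Groups that do not overlap, with KO higher, were seen for 4 of 34 genes and for 1.44% of all genes. Tnfrsf10b encodes the TRAIL death receptor and stood at 39.0, 43.7, 49.1, 35.4 and 45.1 CPM in KO 1 to KO 5, against 29.3, 17.6, 16.0 and 13.9 CPM in WT 1 to WT 4. Every KO library lay above every WT library, and WT 1 was the nearest. The log2 fold change was 1.15 ± 0.21 (SE; edgeR adjusted p = 0.145; DESeq2 adjusted p = 0.000482), with adjusted p of 0.000482 to 0.349 over the alternatives tried. It was called in 5 of 19 alternatives, among them limma-voom (adjusted p = 0.00542) and the edgeR test with no count filter (0.0301), and its log2 fold change was 1.42 (edgeR adjusted p = 0.00334) without WT 1. The gene (chromosome 14, 69767472 to 69784411) lies inside the span of chromosome 14, from 54292443 to 70636048, that holds 7 of the 13 genes called over all genes. The part of that region in its value was not tested.

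Pvt1, a long noncoding RNA, stood at 20.8 to 31.9 CPM in KO libraries and 11.6 to 19.9 CPM in WT libraries (log2 fold change 0.69 ± 0.19, SE; edgeR adjusted p = 0.477). Gtse1, a G2 phase protein that binds p53, stood at 10.0 to 13.7 CPM in KO libraries and 6.48 to 9.77 CPM in WT libraries (0.68 ± 0.19, SE; edgeR adjusted p = 0.493). Both had groups that did not overlap, as did Apaf1, the apoptosome scaffold, which was chosen after its values were seen (37.5 to 42.0 CPM in KO libraries and 23.8 to 34.4 CPM in WT libraries; log2 fold change 0.39 ± 0.13, SE; edgeR adjusted p = 0.616). Steap3, a metalloreductase, had the lowest value, at 6.68 to 19.7 CPM in KO libraries and 17.3 to 31.6 CPM in WT libraries (-0.94 ± 0.27, SE; edgeR adjusted p = 0.539). Btg2, also chosen after its values were seen, was lower in KO as well (log2 fold change -0.52; edgeR adjusted p = 0.616).

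**Figure D4:**
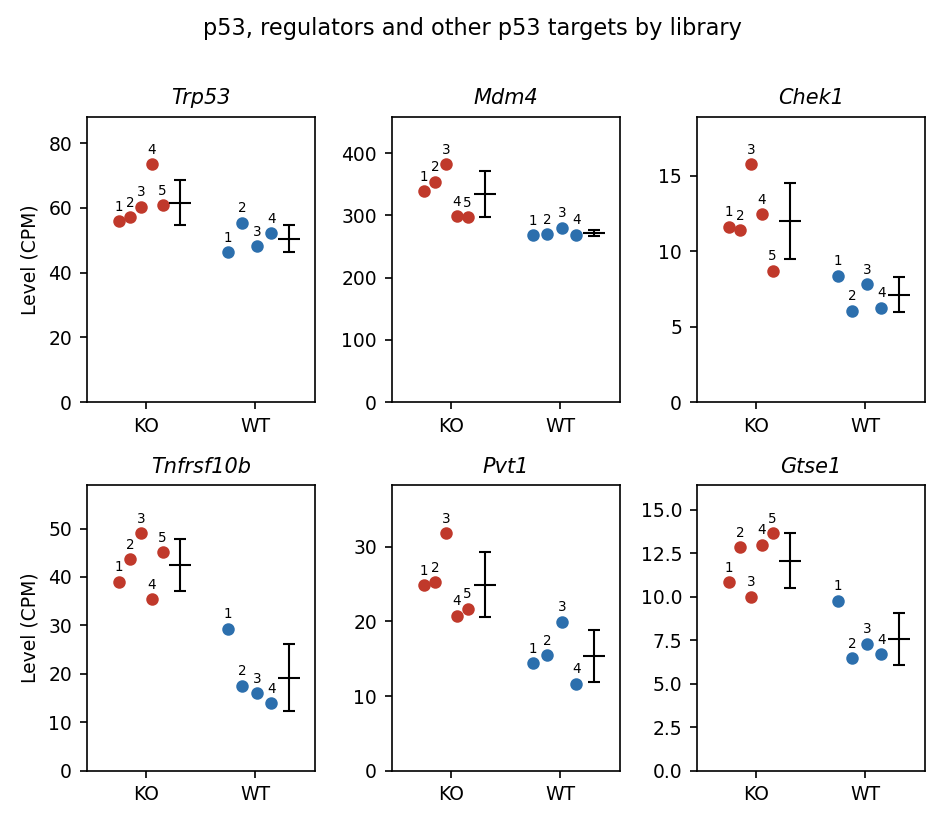
Level in CPM, counts scaled to library size (vertical axis, from 0), of Trp53, Mdm4, Chek1, Tnfrsf10b, Pvt1 and Gtse1 in each KO library (red) and WT library (blue), with the mean and SD of each group in black. The groups do not overlap for any of the 6 genes. The lowest KO library lies close to the highest WT library for Trp53, Chek1, Pvt1 and Gtse1. Chek1, Tnfrsf10b, Pvt1 and Gtse1 were named for the smallest p of their lists, so their separation follows in part from the choice. Steap3, named by the same rule, was lower in KO with overlapping groups and is not shown.

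Genes that act downstream of p21 and beside Bax were compared in the same way. Of 14 p21-bound cyclins and kinases, PCNA and other CIP/KIP inhibitors, 0 were called by edgeR or DESeq2, against 0.0886% and 0.322% of the genes each tested. By edgeR 0 had an unadjusted p under 0.05, against 7.95% of all genes, and the median of the list was -0.04. Cdkn1b, the p27 gene, was at 113 to 131 CPM in KO libraries and 120 to 140 CPM in WT libraries (log2 fold change -0.13 ± 0.10, SE; edgeR adjusted p = 0.759). Of 20 cell cycle genes that are lowered through p21 in cells with active p53, 0 were called by edgeR or DESeq2, against the same shares. Positive fold changes were seen for 18, against 50.0% of all genes, and the median of the list was 0.30. By edgeR 2 had an unadjusted p under 0.05 (E2f1 and Mybl2, both higher in KO), against 3.36% higher in KO over all genes. The transcription factor E2f1 stood at 6.30 to 10.8 CPM in KO libraries and 3.97 to 6.74 CPM in WT libraries (0.59 ± 0.24, SE; edgeR adjusted p = 0.616). The summed level of the 20 genes was 691 to 1147 CPM in KO libraries and 487 to 859 CPM in WT libraries, with WT 2 and WT 4 lowest. Of 10 BCL2 family partners tested out of 13, 0 were called by edgeR or DESeq2, again against these shares. Negative fold changes were seen for 8, where 50.0% of all genes were positive. By edgeR 1 had an unadjusted p under 0.05, with KO lower, against 4.59% lower in KO over all genes. That BCL2 family gene was Bcl2l2, an anti-apoptotic member, at 31.5 to 47.5 CPM in KO libraries and 45.1 to 62.9 CPM in WT libraries (-0.40 ± 0.15, SE; edgeR adjusted p = 0.616). Bcl2l2 and the immediate early gene Egr3 lie in the same span of chromosome 14 as Tnfrsf10b.

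Immediate early genes, which respond to tissue dissociation, were read because several p53 targets also respond to stress. Of 17 tested, 0 were called by edgeR or DESeq2, against 0.0886% and 0.322% of the genes each tested. Negative fold changes were seen for 14, where 50.0% of all genes were positive, and the median log2 fold change of the list was -0.25. By edgeR 1 in each direction had an unadjusted p under 0.05 (Egr3 positive and Ier3 negative), against 3.36% higher and 4.59% lower in KO over all genes. The summed level of the immediate early genes was 742 to 1493 CPM in KO libraries and 1065 to 1874 CPM in WT libraries, with KO 5 highest among KO libraries and KO 3 lowest of all. Their part in the levels of the p53 targets was not tested.

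**Figure D5:**
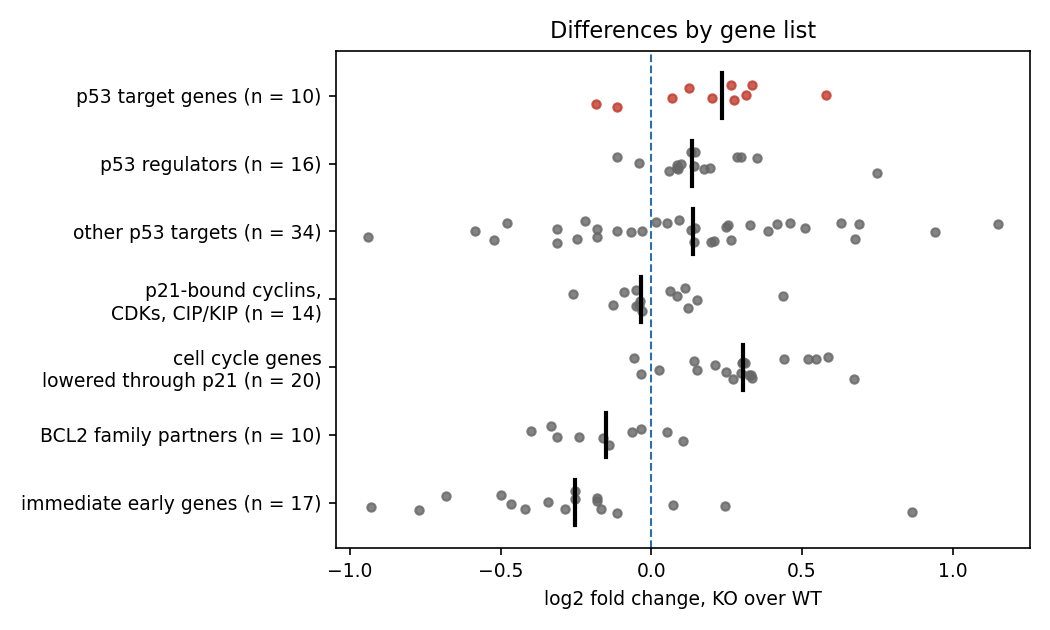
Log2 fold change of KO over WT (horizontal axis) of each tested gene (points) of the p53 target genes (red) and 6 related lists (grey), with the median of each list as a black bar and the median of all genes tested as a dashed line. The median of the p53 target genes is 0.23 and that of the cell cycle genes lowered through p21 is 0.30.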

How the data were processed

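The deposited table holds raw counts per gene for each library, made by the authors. The submitters' processing notes name STAR 2.5.4a, Trimmomatic 0.36 and FastQC 0.11.5, and the build GRCm38. Strand setting and annotation release: not given in the sources used here. Entries of the table that name no gene entered neither the library sizes nor any test (unmapped 11.0% to 27.1%, multimapped 5.50% to 9.53%, no feature 34.0% to 50.4% and ambiguous 0.971% to 1.23% of the fragments). A symbol from the GENCODE annotation of GRCm38 was found for 55141 of 55401 identifiers.

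KO and WT were compared over all genes with the quasi-likelihood test (glmQLFit, glmQLFTest) of edgeR 4.0.16 under R 4.3.3 (TMM factors, filterByExpr, genotype as the only term; two-sided; Benjamini-Hochberg adjusted p under 0.05 called). The SE is the log2 fold change over the square root of F. CPM uses totals of the tested genes times TMM factors. DESeq2 1.42.0 and limma 3.58.1 (voom with sample weights) were alternatives, with other scaling factors, count filters, library number as a block, age, threshold and left-out libraries. The edgeR test was tested on simulated data with the libraries' depths and 200 of 14665 genes changed between KO and WT: it called 123 of 200 at 2-fold, with 9 false calls, and 191 of 200 at 4-fold, with 13. The simulated spread followed the trend over all genes, with none particular to a gene or library, so these recoveries may be too high. All members had estimates smaller than 2-fold, and changes of that size were not simulated. The members and lists were chosen with earlier results of these data known, so no test was run over a list. Named genes are the members, the deleted genes, Trp53, Mdm4, the genes with the smallest p of each list and the 5 genes most like Cdkn1a. Apaf1 and Btg2 were added outside this rule, after their values were seen.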

Additional observations from a re-analysis of the deposited data

Results flagged for a closer look

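In 4 of the 96 groups of libraries examined over the named genes, 1 level stood far from the rest by Dixon's criterion (95% critical values 0.829 for 4 libraries and 0.710 for 5). Chance alone gives this in about 1 of 20 groups, so 4 of 96 is no more than chance gives; none was a level of the 10 p53 targets. Trp53 stood at 73.5 CPM in KO 4, against 55.9 to 60.9 CPM in the other KO libraries. Without KO 4 its log2 fold change was 0.21. Mdm4 stood at 280 CPM in WT 3, against 268 to 270 CPM in the other WT libraries. Egr3 stood at 21.7 CPM in KO 4, against 9.46 to 12.2 CPM in the other KO libraries. Atp6v0e2 stood at 1.34 CPM in WT 4, against 1.63 to 1.67 CPM in the other WT libraries.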

How the results depend on the processing

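No alternative called any of the 10 p53 targets. Over all genes, 13 were called, against 63 by DESeq2, 29 with no count filter and 6 among genes averaging 50 or more counts; leaving out 1 library gave 6 to 13, with 6 without KO 1, KO 4 or KO 5, 7 without KO 2 or WT 2 and 8 without WT 3. The number of p53 targets with a positive fold change stayed between 8 and 9 when 1 library was left out. Their median log2 fold change was 0.15 to 0.32 when 1 library was left out, 0.15 without WT 1 and WT 4 and 0.29 with no scaling factors. Both ends of the first range, 0.15 without KO 5 and 0.32 without KO 3, are medians over 9 members, without Pmaip1. With no scaling factors the median over all genes was 0.060, against -7.8e-05 in the main fit. Signs changed for Pmaip1 (0.017 without KO 2 and 0.12 without WT 3, in a range from -0.23), Trp53inp1 (0.037 without WT 1, in a range from -0.37) and Sesn1 (-0.015 without KO 2 and -0.0029 without WT 1, in a range up to 0.14); the cause was not tested. Pmaip1 fell under the count filter without KO 3 or KO 5 and under the block, and with Bbc3 and Phlda3 under the filter on mean counts. The labels do not say that library numbers pair KO with WT samples, and they were not treated as pairs: deviations of same-numbered libraries had r of -0.025, 0.40, 0.12 and 0.40. WT 2, WT 3 and WT 4 correlated best with the KO library of their own number and WT 1 with KO 3. Whether some samples were paired cannot be told from these values. With the replicate block on samples 1 to 4, 9 genes were called over all genes, 0 p53 targets were called and their median was 0.13 over the 9 tested. Low depth limits Pmaip1 most.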
